A study of Mus musculus with 3 samples.

Results

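Activator protein 1 (AP-1) is a transcription factor assembled from pairs of basic leucine zipper proteins. The 10 genes described here encode FOS, JUN and ATF subunits: Fos, Fosb, Fosl1 and Fosl2, Jun, Junb and Jund, and Atf2, Atf3 and Batf3. They were taken by name from the 24421 genes of the count table, and 9 of the 10 were measured, with at least 1 CPM (counts scaled to a fixed library size) in at least 1 library, as were 13100 genes in all. The cells were JB6 P+, a mouse skin line labelled as epithelial in which tumour promoters can bring about transformation. RNA was sequenced from 3 cultures, 1 library each. The control carried no added agent in its labels. The TPA culture received TPA, a phorbol ester, at 10 ng/mL. The CDDO+TPA culture received the same dose together with CDDO, a synthetic oleanane triterpenoid, at 50 nM. Both were dosed on alternate days for 5 days in medium with 1% serum. Growth medium is given as 10% serum for all 3 samples. The serum of the control during the treatment days, its time in culture and its vehicle are not given in the sources used here. Nor are the hours between the last dose and harvest. A difference between a treated culture and the control therefore cannot be told apart from a difference in medium or time.

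As background, FOS proteins do not pair with one another and bind DNA as partners of JUN proteins, whereas JUN and ATF proteins also pair among themselves. The dimers bind the TPA response element and the related cyclic AMP response element, and phorbol esters reach them through protein kinase C and the MAP kinases. Fos, Fosb, Jun, Junb and Atf3 are immediate early genes whose messages rise and decay quickly after a stimulus, while Fosl1 and Fosl2 respond later and stay up longer. In JB6 cells, AP-1 activity has long been tied to transformation by TPA. The libraries were taken after days of repeated dosing, not within the first hours of it.

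The libraries held 8190078, 7813035 and 7872089 reads in genes for control, TPA and CDDO+TPA, and values are listed in that order throughout. With 1 library per group there was no replicate, so no p-value was computed. Each 95% interval covers counting error only and says nothing of the spread between cultures. To pass the size rule, a gene needed a log2 fold change of 1 or more in either direction and a CPM ratio whose counting interval left out 1. All comparisons share libraries, so a low value in the TPA library alone lowers the ratio to control and raises that of CDDO+TPA to TPA. In bulk RNA, fewer cells of a type and less RNA per cell cannot be told apart. Mesenchymal markers summed to 1474, 890 and 1047 CPM, with 7 of 9 measured, whereas 3 of 11 keratinocyte markers were measured, at a sum of 17.1, 20.5 and 11.7 CPM, and the basal keratin gene Krt5 had 0 reads in every library. The epithelial label was thus not matched by the defining keratinocyte markers. The mesenchymal sum was highest in control through Col1a1, at 529, 152 and 267 CPM, and Col1a2, at 506, 145 and 207. Vim, Pdgfra, Dcn and S100a4 were instead lowest in control, with 268, 369 and 356 CPM for Vim. The part of these markers in the results was not tested.

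None of the 9 measured AP-1 genes was past the size rule in TPA against control, where 9.57% of all measured genes were higher and 5.91% lower. None was past it in CDDO+TPA against TPA either, where 7.87% of genes were higher and 7.78% lower. In CDDO+TPA against control Atf3 alone was past it, on the lower side, against backgrounds of 8.02% higher and 3.37% lower. Among the smaller differences, the 3 JUN genes and Atf3 were highest in control, intermediate in TPA and lowest in CDDO+TPA. The FOS genes and Atf2 did not share that order. It was not particular to AP-1 genes. Of other immediate early genes, Klf4 (397, 292 and 249 CPM) and Myc (274, 236 and 184 CPM) had it. Others, such as Egr1 (91.6, 79.6 and 133 CPM), did not. The share of all measured genes with this order was not counted. Among the 8 AP-1 genes with a mean of at least 10 CPM, the counting interval lay below 1 for 6 and above 1 for 1 in TPA against control. That rule was met by 38.2% and 30.4% of the 9890 genes at such a level. It lay below 1 for 5 and above 1 for 2 in CDDO+TPA against TPA, beside 31.3% and 36.4% of genes. In CDDO+TPA against control it lay below 1 for 5 and above 1 for 1, beside 34.6% and 28.1% of genes. Between 28.1% and 38.2% of well covered genes met this rule in a given direction, so an interval that excludes 1 sets no gene apart by itself.

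**Figure D1:**
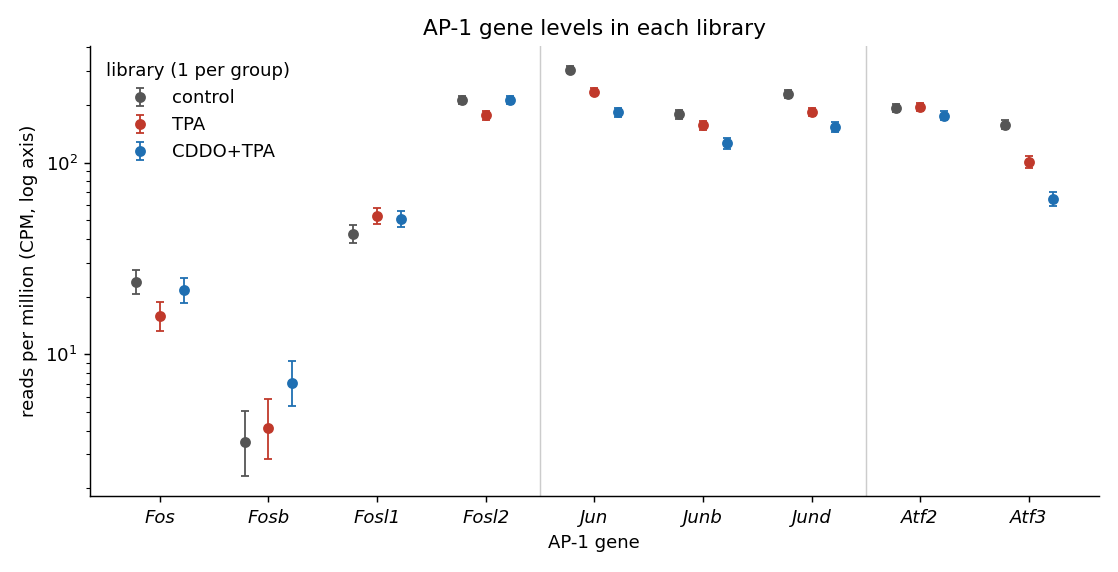
CPM of the 9 measured AP-1 genes (log axis), 1 point per library, with exact Poisson 95% counting intervals; grey lines part FOS, JUN and ATF genes. Jun, Junb, Jund and Atf3 step down from control to TPA to CDDO+TPA, and Fos and Fosl2 are lowest in TPA.

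Of the JUN genes, Jun encodes c-Jun, a subunit that JNK phosphorylates. It had 2451, 1874 and 1449 reads, or 306, 235 and 184 CPM. The TPA library was 1.30-fold lower (95% counting interval 1.22 to 1.38) than control, and the CDDO+TPA library was 1.28-fold lower (1.20 to 1.37) than TPA. No 2 of the 3 libraries overlapped in counting error, and CDDO+TPA stood 1.67-fold below control (1.56 to 1.78). Junb, which encodes a JUN protein that can restrain c-Jun, had 1432, 1246 and 997 reads, or 179, 156 and 126 CPM. It was 1.14-fold lower (1.06 to 1.23) in TPA than in control and 1.24-fold lower (1.14 to 1.35) in CDDO+TPA than in TPA. Jund encodes the JUN protein that is usually made at a steady level in resting cells. Its reads numbered 1834, 1467 and 1210, or 229, 184 and 153 CPM, and its ratios were 1.24-fold lower (1.16 to 1.33) and then 1.20-fold lower (1.11 to 1.30). The JUN genes thus shared 1 order of levels, in steps of 1.14-fold to 1.30-fold, all under the size rule.

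All 3 JUN genes consist of a single exon in the deposited gene models. Jun lies on chromosome 4 at 95049036 to 95052222 on the minus strand of mm10, Junb on chromosome 8 at 84976909 to 84978748 on the minus strand, and Jund on chromosome 8 at 70697739 to 70700616 on the plus strand. The Jund model starts 1210 bases before that of GENCODE M21, so its level per length depends on which is used. Junb in control held 0.778 reads per exonic base, the highest of any AP-1 gene. The part of duplicate removal in these values was not tested.

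The 120 bases before the RefSeq start are shown for the AP-1 genes that shared this order, to compare their proximal promoters. Fos is added as the FOS gene best known for promoter control. Sequences are from RefSeq on GRCm38.p6, and run 5′ to 3′ on the strand of the gene. Capitals mark TGACATCA, TTACGTCA and the core TGACG on either strand.
Jun (chr4:95052223-95052342, minus): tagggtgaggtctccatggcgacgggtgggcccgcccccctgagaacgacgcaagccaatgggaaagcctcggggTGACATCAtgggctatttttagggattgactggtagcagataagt
Junb (chr8:84978749-84978868, minus): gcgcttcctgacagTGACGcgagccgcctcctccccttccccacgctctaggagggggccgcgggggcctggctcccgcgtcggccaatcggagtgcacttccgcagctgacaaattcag
Jund (chr8:70697619-70697738, plus): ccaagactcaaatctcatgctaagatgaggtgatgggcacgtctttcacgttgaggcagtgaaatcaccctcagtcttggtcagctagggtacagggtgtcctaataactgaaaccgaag
Atf3 (chr1:191183334-191183453, minus): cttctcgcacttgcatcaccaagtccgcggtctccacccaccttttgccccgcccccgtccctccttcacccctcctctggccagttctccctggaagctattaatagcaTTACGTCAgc
Fos (chr12:85473770-85473889, plus): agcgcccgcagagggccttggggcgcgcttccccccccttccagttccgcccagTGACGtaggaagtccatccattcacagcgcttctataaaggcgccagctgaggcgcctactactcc

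Of the 10 genes 9 had a RefSeq promoter window, which runs from 250 bases before to 50 bases after the start; Fosl1 was the other. The consensus TPA response element TGACTCA, on either strand, was in none of the 9 windows and in 5.2% of all 32851 windows. The consensus cyclic AMP response element TGACGTCA was in none of the 9 and in 1.79% of all. The variant TGACATCA, on either strand, was found in Jun alone, 45 bases before the start, and in 3.62% of all windows. The core TGACG, which the element TGACGTCA also holds, was in the Fos, Fosb, Junb and Atf3 windows and in 20.8% of all. In Atf3 it was part of TTACGTCA, 10 bases before the start, which 0.499% of all windows hold. The CArG box, to which serum response factor binds, was in none of the 9 and in 1.63% of all; the well known one of Fos lies farther upstream than this window. The Jund window held none of these letters, and no match was common to the windows of the JUN genes and Atf3. The Jund window is set by the RefSeq start, 1210 bases before the GENCODE one, and the sequence before the GENCODE start was not searched. For Atf3 the GENCODE model begins 34706 bases farther upstream than the deposited one, and the sequence before that start was not searched either. These are matches of letters, not sites shown to be bound.

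Of the ATF genes, Atf3, a stress-induced factor that often represses its targets, had 1267, 804 and 511 reads, or 158, 101 and 64.7 CPM. It was 1.57-fold lower (1.43 to 1.71) in TPA than in control and 1.56-fold lower (1.39 to 1.75) in CDDO+TPA than in TPA. Each step was smaller than the size rule asks, and the sum of both, 2.44-fold lower (2.20 to 2.71) in CDDO+TPA than in control, was past it with a log2 fold change of -1.28. Among the 9 genes Atf3 had the largest difference in that comparison. It lies on chromosome 1 at 191170297 to 191183333 on the minus strand, with 4 exons.

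Atf2, which pairs with c-Jun and is activated by phosphorylation through p38 and JNK, had 1542, 1562 and 1389 reads, or 192, 196 and 176 CPM. Its TPA level did not differ from control beyond counting error (ratio 1.02, 0.949 to 1.09), and CDDO+TPA was 1.11-fold lower (1.04 to 1.20) than TPA. CDDO+TPA was also 1.09-fold lower (1.02 to 1.18) than control, so Atf2 was slightly lowest in CDDO+TPA and level in the others. It lies on chromosome 2 at 73816509 to 73892639 on the minus strand. Batf3, known for dendritic cell development, had 0, 0 and 1 reads. The limit that a count of 0 allows, 3 counts, was 0.374 and 0.377 CPM in control and TPA, so no difference was detectable at this depth. Batf3 lies on the same chromosome as Atf3, chromosome 1, at 191098414 to 191108943 on the plus strand.

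**Figure D2:**
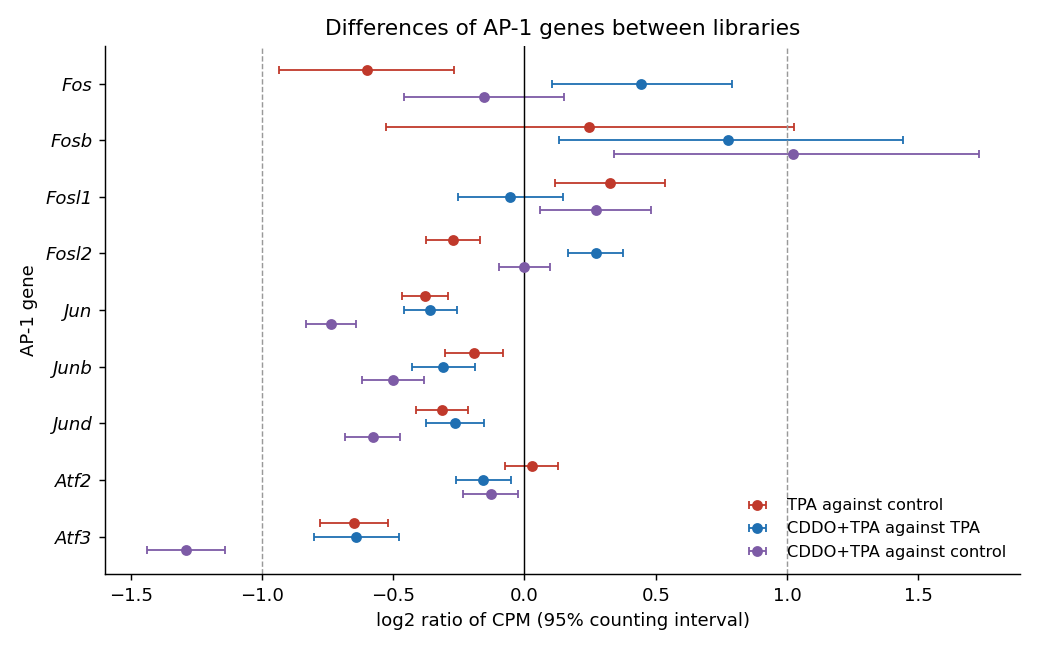
Log2 ratio of CPM with its 95% counting interval for each measured AP-1 gene in TPA against control, CDDO+TPA against TPA and CDDO+TPA against control; dashed lines mark a log2 ratio of 1 in size. The JUN genes and Atf3 lie left of 0 in all 3 comparisons, Fos and Fosl2 lie left of 0 in the first and right of it in the second. Atf3 in CDDO+TPA against control lies past the left line. Fosb there lies just past the right one, since the plot adds no prior count, and at 0.97 with the prior count it is under the size rule.

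Of the FOS genes, Fos, the prototype immediate early gene, had 192, 126 and 170 reads, or 24.0, 15.8 and 21.5 CPM. It was 1.51-fold lower (1.20 to 1.91) in TPA than in control and 1.36-fold higher (1.08 to 1.73) in CDDO+TPA than in TPA. CDDO+TPA and control did not differ beyond counting error (ratio 0.899, 0.727 to 1.11). Fosl2, which encodes FRA-2, had 1708, 1407 and 1682 reads, or 213, 177 and 213 CPM, the most reads of the FOS genes in each library. It was 1.21-fold lower (1.12 to 1.30) in TPA than in control and 1.21-fold higher (1.12 to 1.30) in CDDO+TPA than in TPA. Fos and Fosl2 were thus both lowest in the TPA library, and Fosl2 was level in the others. Fos lies on chromosome 12 at 85473901 to 85477270 and Fosl2 on chromosome 5 at 32136472 to 32157839, both on the plus strand with 4 exons.

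Fosb, which also yields the shortened stable ΔFosB protein, had 28, 33 and 56 reads, or 3.49, 4.14 and 7.10 CPM. TPA and control overlapped in counting error (ratio 1.19, 0.695 to 2.04). The CDDO+TPA library was 1.71-fold higher (1.09 to 2.72) than TPA and 2.03-fold higher (1.27 to 3.32) than control. The latter log2 fold change, 0.97, was just under the size rule, and it passes the rule when scaled by total counts or upper quartiles, or with a prior count of 0.5. Fosb lies on chromosome 7 at 19302696 to 19310045 on the minus strand. These are few reads, and counts per gene do not separate the ΔFosB form from the full one.

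Fosl1 encodes FRA-1, the FOS protein most tied to invasive and transformed cells. It had 339, 422 and 403 reads, or 42.3, 53.0 and 51.1 CPM. It was 1.25-fold higher (1.08 to 1.45) in TPA than in control, the only AP-1 gene whose interval lay above 1 in that comparison. Such an interval was held by 30.4% of the 9890 genes with a mean of at least 10 CPM, so it does not set Fosl1 apart. CDDO+TPA did not differ from TPA beyond counting error (ratio 0.964, 0.839 to 1.11), and was 1.21-fold higher (1.04 to 1.40) than control. Of the 1705 exonic bases of Fosl1 (chromosome 19, 5447698 to 5455938, plus strand), 1155 are also exons of Ccdc85b on the other strand. The counting command named no strand option, which leaves 550 bases of its own. Ccdc85b had 52.7, 77.0 and 104 CPM, and its part in the Fosl1 counts was not tested. No other AP-1 gene shared exonic bases with a gene on the opposite strand in the table.

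Taking the log2 fold change for each of the TPA and CDDO steps as coordinates, the genes nearest to Fosl1 were Timm50, Smtn and Snrpd2. They encode a subunit of the mitochondrial import machinery, a smooth muscle cytoskeletal protein and a core spliceosomal protein. Their distances were 0.012, 0.016 and 0.018 on the log2 scale, over 3 libraries. Timm50 had 53.7, 67.7 and 65.5 CPM. Of 9889 genes compared, 161 lay within 0.1 of Fosl1.

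Divided by exon length, the AP-1 genes fell into tiers. With the deposited lengths, Junb and Jun stood highest in control at 97.1 and 96.0 CPM per kilobase (kb), and did not differ beyond counting error (ratio 1.01, 0.947 to 1.08). Atf3 and Jund followed at 80.0 and 79.5 CPM per kb and likewise did not differ (ratio 1.01, 0.936 to 1.08). Fosl2, Atf2 and Fosl1 had 36.4, 29.9 and 24.8 CPM per kb, Fos had 11.4 and Fosb 0.925. All 4 of the top tier lay above percentile 94 of the measured genes on this scale, the lowest of them, Jund, at 94.1. In the TPA library the order at the top was Junb, Jun, Jund and Atf3 at 85.0, 73.8, 64.0 and 51.1 CPM per kb, each apart from the next in counting error. Fosl1, Atf2 and Fosl2 were together at 31.1, 30.5 and 30.1 CPM per kb, and neighbours in that order did not differ. In the CDDO+TPA library Atf3, at 32.8 CPM per kb, stood below Fosl2 at 36.4. It did not differ from its lower neighbour Fosl1 at 29.9 (ratio 1.09, 0.958 to 1.25). With these lengths Atf3 was in the top tier in control and the middle one in CDDO+TPA. The order between genes depends on the lengths. With GENCODE M21 lengths and the same counts, Jund stood highest in every library, at 137, 110 and 91.9 CPM per kb. Atf3, at 30.1 CPM per kb in CDDO+TPA, was then above Fosl2 at 22.0 and ranked 4 in every library. With only its own 550 bases as length, Fosl1 had 76.9, 96.3 and 92.8 CPM per kb, beside 79.5 for Jund in control, and the highest value of the AP-1 genes in TPA and CDDO+TPA.

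Summed per length, the 4 FOS genes had 73.5, 69.9 and 78.5 CPM per kb and the 3 JUN genes 273, 223 and 180. The JUN sum was 1.22-fold lower (1.18 to 1.27) in TPA than in control and 1.24-fold lower (1.19 to 1.30) in CDDO+TPA than in TPA. The FOS sum did not differ between TPA and control beyond counting error (ratio 0.950, 0.885 to 1.02), and was 1.12-fold higher (1.05 to 1.21) in CDDO+TPA than in TPA. FOS transcripts per JUN transcript, a ratio within each library that no scaling between libraries affects, were 0.270 (0.255 to 0.285), 0.313 (0.295 to 0.333) and 0.437 (0.412 to 0.463). The ratio was 1.39 times as high (1.28 to 1.52) in CDDO+TPA as in TPA, and 1.62 times as high (1.49 to 1.76) as in control. Its level depends on the lengths used, and was 0.461, 0.606 and 0.787 when the shared bases of Fosl1 were left out of its length. The order of the libraries was the same under each of the lengths tried.

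**Figure D3:**
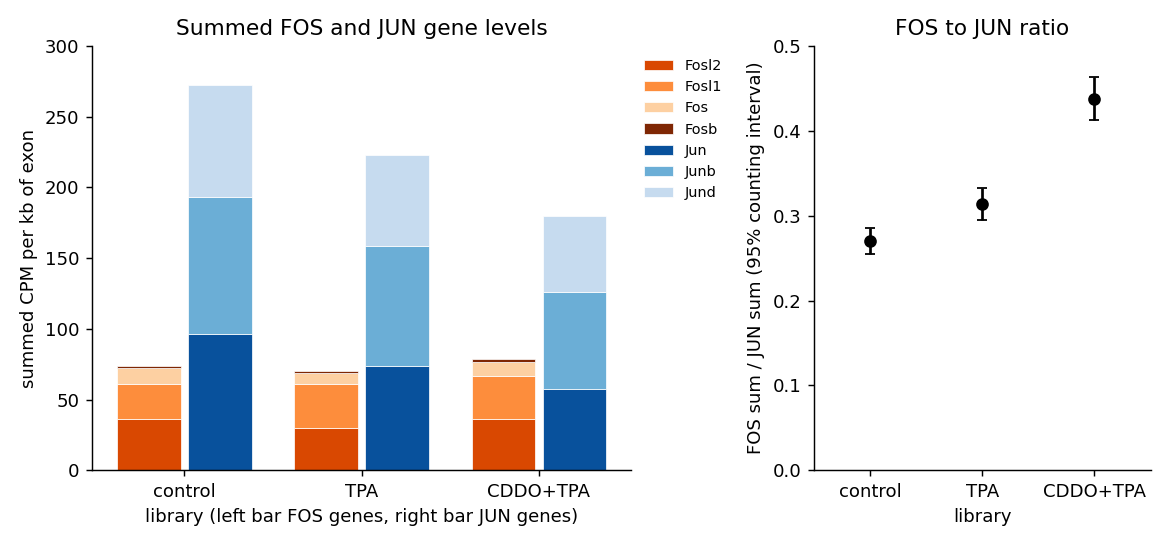
Left, CPM per kb of exon of the FOS genes (left bar) and JUN genes (right bar) summed in each library; right, the FOS sum over the JUN sum with its 95% counting interval. The JUN bars are 273, 223 and 180 CPM per kb and the FOS bars 73.5, 69.9 and 78.5, and the ratio is 0.270, 0.313 and 0.437.

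Within the FOS sum, Fosl1 made up 33.7% (31.2 to 36.4), 44.5% (41.8 to 47.2) and 38.2% (35.6 to 40.8) of transcripts, so its share was highest in the TPA library. Fosl2 made up 49.4% (47.0 to 51.8), 43.1% (40.8 to 45.5) and 46.3% (44.0 to 48.6), and Fos 15.6%, 10.8% and 13.1%. Fosb made up 1.26%, 1.57% and 2.39%. With the 550 bases of its own as length, Fosl1 made up 61.2%, 71.3% and 65.7%, again highest in TPA. The JUN sum was more evenly divided: Jun made up 35.2%, 33.1% and 32.1%, Junb 35.6%, 38.2% and 38.2%, and Jund 29.2%, 28.7% and 29.7%. With GENCODE M21 lengths, Jund instead made up 44.1%, 43.8% and 45.0%, the largest share. That setting changes the lengths alone, from 2878 to 1668 bases for Jund and from 1840 to 2301 for Junb. Reads were not recounted, so any that lie outside the shorter Jund model still count for it. Which JUN message was most abundant therefore stays undecided.

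Genes around AP-1 were read from 7 lists, whose counts past the size rule stand beside the shares of all measured genes: 9.57% higher and 5.91% lower in TPA against control, then 7.87% higher and 7.78% lower for CDDO+TPA relative to TPA. With so few genes in a list, nothing particular to a list is read from its count. ATF and CREB relatives, all 12 measured, had 0 higher and 2 lower in TPA against control (5.91% of all genes lower), with a median log2 fold change of -0.01, beside 0.00 over all measured genes. Atf6, the endoplasmic reticulum stress sensor, had 541, 241 and 335 CPM and was 2.25-fold lower (2.13 to 2.38) in TPA. Creb3l2, another membrane-bound factor, had 35.3, 14.4 and 34.7 CPM, was 2.45-fold lower (1.963 to 3.07) in TPA, and was the 1 of 12 past the rule in CDDO+TPA against TPA, where it was 2.40-fold higher (1.93 to 3.02). The median there was -0.26, beside 0.01 over all measured genes.

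Of 15 other dimer partners 12 were measured, and in TPA against control 0 were higher and 2 lower (5.91% of all genes lower), with a median of -0.10. Cebpd, a C/EBP factor of the acute phase response, had 92.2, 29.8 and 39.7 CPM and was 3.10-fold lower (2.67 to 3.60) in TPA. Bach2, a repressor that pairs with small MAF proteins, had 15.1, 3.64 and 3.42 CPM and was 4.15-fold lower (2.75 to 6.45). In CDDO+TPA against TPA none of the 12 was past the rule and the median was -0.29. Cebpg, which had the highest mean CPM of the list, had 232, 234 and 132 CPM and a log2 fold change of -0.83 there.

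Upstream of AP-1, 24 of 26 MAP kinase cascade genes were measured, and 2 were higher and 0 lower in TPA against control (median -0.02), near the 9.57% of all genes higher. Map2k6, a kinase of p38, was counted at 6, 32 and 39 reads, a 5.37-fold higher level (2.21 to 15.7) in TPA. Mapk12, which encodes p38 gamma, had 44, 95 and 28 reads, was 2.17-fold higher (1.504 to 3.18) in TPA and 3.36-fold lower (2.19 to 5.32) in CDDO+TPA than in TPA. Rps6ka2, an RSK kinase gene, had 78.6, 48.5 and 102 CPM and was 2.10-fold higher (1.86 to 2.38) in CDDO+TPA than in TPA; with Mapk12 it made up the 1 higher and 1 lower of 24 in that comparison (median 0.07). Braf, the gene of highest mean CPM in the list, had 296, 242 and 254 CPM. Serum response factor and its cofactors, all 9 measured, had none past the rule in either comparison, with medians of 0.18 and -0.12, and Mef2a, the highest, had 262, 233 and 263 CPM.

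Other immediate early genes are induced by the same stimuli as Fos and Jun. Of 24 listed, 23 were measured; 1 was higher and 2 lower in TPA against control, with a median of -0.20, beside 9.57% and 5.91% of all genes. For CDDO+TPA relative to TPA, 3 were higher and 1 lower, with a median of -0.16, beside 7.87% and 7.78% of all genes. These counts are close to the shares over all genes. Csrnp1, a nuclear factor gene, had 37.9, 81.7 and 36.5 CPM, being 2.15-fold higher (1.88 to 2.48) in TPA and 2.24-fold lower (1.95 to 2.58) in CDDO+TPA than in TPA. Ctgf, a matricellular gene, went the other way, with 42.9, 15.6 and 40.4 CPM, being 2.76-fold lower (2.24 to 3.41) and then 2.60-fold higher (2.10 to 3.22). Btg2, an antiproliferative gene, had 108, 48.8 and 63.2 CPM and was 2.20-fold lower (1.95 to 2.49) in TPA. Egr3 and Nr4a3, a zinc finger factor and an orphan nuclear receptor, had 11, 8 and 28 reads and 29, 15 and 43 reads, and were 3.53-fold (1.57 to 8.97) and 2.89-fold (1.58 to 5.61) higher in CDDO+TPA than in TPA. Klf6, the highest of the list, had 437, 384 and 374 CPM.

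Of 36 genes described elsewhere as AP-1 targets, 27 were measured. In TPA against control 6 were higher and 2 lower, beside 9.57% and 5.91% of all genes. Of the 27, 21 had a log2 fold change above 0 and 6 below, with a median of 0.44. Of all 13100 measured genes, 6544 were above 0 and 6549 below. In CDDO+TPA against TPA 4 of the 27 were higher and 2 lower, beside 7.87% and 7.78% of all genes. There 17 were above 0 and 10 below, with a median of 0.17, beside 6652 above and 6444 below of all measured genes. Ezr, the membrane linker ezrin, had 15.6, 42.7 and 73.5 CPM and was 2.74-fold higher (2.22 to 3.39) in TPA. The stromelysin genes Mmp3 and Mmp10 had 15, 94 and 64 reads and 4, 72 and 19 reads. In TPA they were 6.30-fold (3.63 to 11.7) and 18.1-fold (6.77 to 68.3) above control, and Mmp10 was 3.75-fold lower (2.24 to 6.59) in CDDO+TPA than in TPA. Prl2c2, a proliferin first found in growth-stimulated cells, had 0, 32 and 312 reads, and its reads can be shared with near-identical copies. Timp1, a metalloproteinase inhibitor, was 2.46-fold lower (2.07 to 2.93) in TPA and 2.83-fold higher (2.39 to 3.37) in CDDO+TPA than in TPA, with 57.8, 23.5 and 66.5 CPM. Il6, a cytokine gene, had 63, 10 and 10 reads and was 6.26-fold lower (3.19 to 13.7) in TPA. The others past the rule, named after their values were seen, had few reads: Prl2c5 had 0, 7 and 62, S100a8 2, 6 and 34, and Mmp9 1, 9 and 1. Hmga2, a chromatin protein gene with the highest mean CPM of the list, had 408, 624 and 539 CPM. These genes answer to other factors too, and the list was drawn with earlier results of these data known, so its direction is not independent evidence about AP-1.

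**Figure D4:**
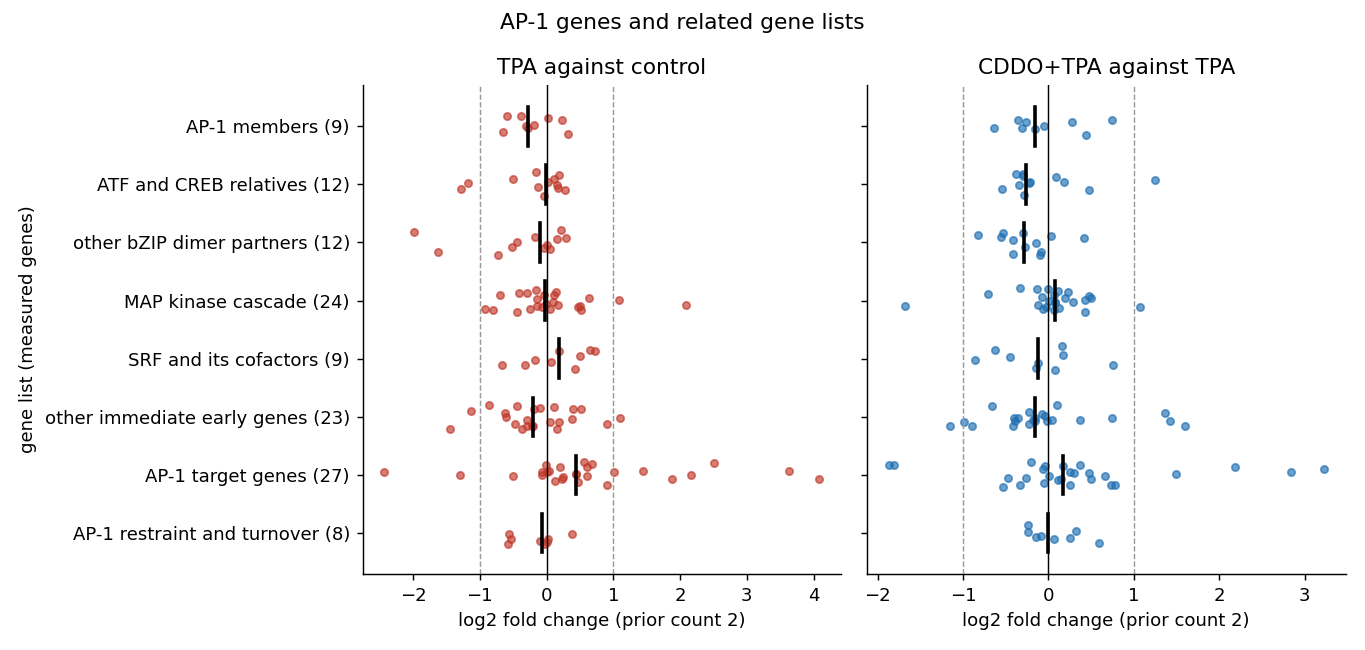
Log2 fold change (prior count 2) of each measured gene, by list, in TPA against control (left) and for CDDO+TPA relative to TPA (right); black bars are medians and dashed lines mark 1 in size. The AP-1 genes lie within the dashed lines on both sides, with medians of -0.27 and -0.16, and the target list has the widest spread.

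Genes that restrain AP-1 or govern its turnover, 8 of 8 measured, had none past the rule in either comparison, with medians of -0.06 and -0.01. Nr3c1, the glucocorticoid receptor, which opposes AP-1, had 286, 268 and 242 CPM. Pdcd4, chosen after its values were seen because it is known as a suppressor of transformation and of AP-1 activity in JB6 cells, had 91, 119 and 178 reads, or 11.4, 14.9 and 22.6 CPM. It was 1.51-fold higher (1.19 to 1.92) in CDDO+TPA than in TPA and 1.99-fold higher (1.53 to 2.59) than in control, under the size rule in both. The list did not share this direction. Of the 8 genes, 4 had a log2 fold change above 0 and 4 below in CDDO+TPA against TPA. In CDDO+TPA against control only Pdcd4 was above 0 and 7 were below, with a median of -0.24. When scaled by total counts or upper quartiles, 1 gene of the list was past the rule in that comparison.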

How the data were processed

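The authors deposited 1 table of raw counts, which gives whole reads for each gene symbol. Per the file headers, they came from featureCounts 1.5.3 on a UCSC mm10 annotation, keeping primary alignments, with no strand option named. The submitters' processing notes name HISAT2, Picard and DESeq without versions. Column names mark duplicates as removed. The third column names CDDO only and was taken as CDDO+TPA, the 1 sample whose labels name CDDO. The header names 7 alignment files, and 3 columns are present.

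Counts were scaled by TMM factors of edgeR 4.0.16 (0.978, 1.02 and 1.00). Log2 fold changes used a prior count of 2. Folds are CPM ratios with exact conditional binomial 95% intervals, and intervals of sums, shares and FOS to JUN ratios used a normal approximation. The intervals describe counting error alone, since they rest on the counts of 1 library per group. Reads carry no molecular identifiers, and whether counts after duplicate removal follow the counting model was not tested. Alternatives were other scalings, including DESeq2 1.42.0, prior counts, filters, a 1.5-fold threshold and other gene lengths.

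The AP-1 genes and the lists were chosen with earlier results of these data known. Genes named from a list are those past the size rule in TPA against control or CDDO+TPA against TPA, at most 6 by mean CPM, and the gene of highest mean CPM. For Fosl1, the 3 genes nearest in both log2 fold changes are named. Protein sequences were not used here.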

Additional observations from a re-analysis of the deposited data

How the results depend on the processing

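No paired analysis was possible because each group is 1 library, and for the same reason no library was left out. The log2 fold changes of the 9 AP-1 genes stayed within their main counting intervals in all 135 combinations of gene, comparison, scaling and prior count. The number of AP-1 genes past the size rule was 0 in TPA against control, 0 in CDDO+TPA against TPA and 1 in CDDO+TPA against control. With a 1.5-fold threshold it was 2 (Fos and Atf3 lower), 2 (Fosb higher and Atf3 lower) and 3 (Fosb higher, Jun and Atf3 lower). In CDDO+TPA against control it was 2 with total counts, 2 with upper-quartile scaling and 2 with a prior count of 0.5, as Fosb joined Atf3. Of 105 list counts 103 were within 1.5 times the main count; the others were 1 gene of the restraint list, in CDDO+TPA against control, under 2 scalings.

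Values that set genes side by side moved with the gene length, by construction. With raw counts the FOS to JUN ratio was 0.397, 0.433 and 0.632, the Fosl1 share 15.0%, 21.2% and 17.4%, and the Jund share 32.1%, 32.0% and 33.1%. With GENCODE M21 lengths, added after seeing the data, they were 0.172, 0.205 and 0.281, then 38.8%, 50.4% and 43.7%, then 44.1%, 43.8% and 45.0%. With the shared bases of Fosl1 left out, also added, the ratio was 0.461, 0.606 and 0.787 and the Fosl1 share 61.2%, 71.3% and 65.7%. The order of genes by level per length moved too. Of 39 values for the other shares, 33 moved beyond their intervals. Under these 3 lengths the ratio in CDDO+TPA was 1.46, 1.37 and 1.30 times that in TPA.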
